A study of Gallus gallus with 3 samples.

Results

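H3K27me3 peaks that lay wholly inside a wider H3K4me3 peak were examined in the neural tube of chicken embryos. A peak belonged to the set when it was on a numbered chromosome, when both of its ends lay within 1 H3K4me3 peak, and when it was shorter than that peak, which is called its host. The set held 229 of the 5535 H3K27me3 peaks on numbered chromosomes, or 4.14% (95% Wilson interval 3.64 to 4.69%), out of 6267 in the whole list. Measured against the 2060 H3K27me3 peaks that shared at least 1 bp with H3K4me3 there, it was 11.1% (interval 9.83 to 12.5%). The members were chosen by the measured positions of the peaks in both lists, so their widths, their shares of the host and their margins describe the choice as well as the chromatin.

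The chromatin came from the neural tube of wild-type (WT) White Leghorn embryos staged HH30 after Hamburger and Hamilton, from eggs kept at 38.5 °C and 70% humidity. Sheared, formaldehyde-fixed chromatin was recovered with an antibody against H3K4me3 (Abcam ab8580) or against H3K27me3 (Millipore 07-449) and sequenced, with 1 library for each mark and 1 Input, and no source used here tells how many embryos a library pooled. Peak lists of the marks were used, and the Input was not analysed here. With 1 library for each mark no comparison below has a replicate check, no p-value was computed, and the intervals given cover the counting of peaks alone, as if neighbouring peaks were independent.

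Trimethylation of histone H3 at lysine 4 is laid down by SET1 and MLL complexes around the start sites of genes that are active or held ready, mostly at promoters rich in CpG. Trimethylation at lysine 27 is laid down by Polycomb repressive complex 2 and can spread over long stretches of silent developmental genes. Places that carry both marks are known as bivalent and are common at promoters of developmental regulators in embryonic cells. The neural tube at this stage holds progenitors and neurons of many kinds, and peaks from separate libraries of such a mixture do not show whether both marks sat on the same nucleosome, allele or cell. Genes were not assigned to the peaks, because the gene table at hand describes an assembly other than galGal4, the build of the peaks.

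Enclosed H3K27me3 peaks were short. Their median width was 1197 bp (95% order-statistic interval 1118 to 1260 bp, n = 229 peaks), with quartiles at 924 and 1593 bp and a range from 448 to 4542 bp. All H3K27me3 peaks of the numbered chromosomes had a median of 1751 bp, and 456 of them exceeded 5 kb, whereas no member did. Since a member must be shorter than its host, this difference is in part set by the choice. Only 40 of the 11302 H3K4me3 peaks on numbered chromosomes exceeded 5 kb, so few could have held a member above that width. Together the members covered 315.5 kb, which is 2.40% of the length under H3K27me3 peaks on these chromosomes.

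The 225 hosts were wider than most H3K4me3 peaks, as holding another peak requires. Their median width was 1847 bp (interval 1705 to 1918 bp), against 1448 bp for all 11302 H3K4me3 peaks of the numbered chromosomes. Of the hosts, 221 held 1 member and 4 held 2. The members took up 68.3% of the summed length of the hosts. A single member covered 75.5% of its host in the median (interval 70.8 to 81.4%), but the spread was wide, from 9.73% to 99.5%. At one extreme, 78 members covered at least 90% of the host, and at the other 43 covered less than 50%, of which 4 covered less than 25%.

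**Figure D1:**
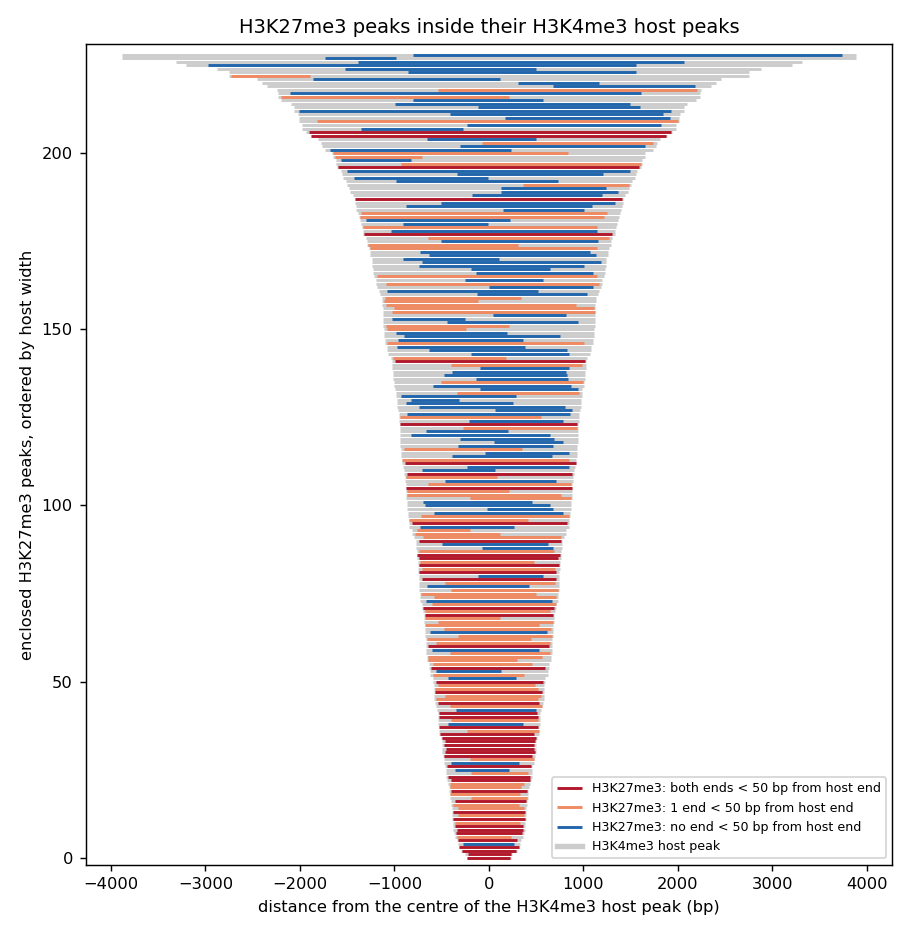
Each of the 229 rows is 1 enclosed H3K27me3 peak (coloured) drawn to scale on its H3K4me3 host peak (grey), as distance in bp from the host's centre, with hosts ordered by width. Members with both ends less than 50 bp from the ends of the host (red, 49 peaks) gather among narrow hosts at the bottom, and members with neither end that close (blue, 98 peaks) among wide hosts at the top.

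The ends of many members fell almost on the ends of the host. The shorter of the 2 margins that the host left beside a member was 34 bp in the median (interval 24 to 48 bp), and the longer one was 292 bp (interval 224 to 496 bp). In 49 members (21.4%, 95% Wilson interval 16.6 to 27.2%) both ends lay less than 50 bp from the corresponding ends of the host, so that the peaks were nearly the same interval. In 82 members (35.8%, interval 29.9 to 42.2%) 1 end did so, and in 98 (42.8%, interval 36.6 to 49.3%) neither did. These 3 classes are called end-matched, half-matched and inner below. Across all 2112 overlapping pairs of peaks on the numbered chromosomes the end-matched share was 4.17%. It was 2 of the 739 pairs in which H3K4me3 lay inside H3K27me3, and 37 of the 1144 pairs in which the peaks overlapped in part. Enclosure leaves less room for distant ends, so these shares are given as a description.

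Position between the margins differed among the end classes, which are themselves defined by these margins. Relative position, the shorter margin divided by the sum of both margins, is 0 at an edge and 0.5 in the middle. Positions spread evenly between edge and middle would centre at 0.25. The median over all members was 0.186 (interval 0.140 to 0.212). It was 0.0519 (interval 0.0345 to 0.0769) in half-matched members, which lie at an edge by definition. Inner members had 0.206 (interval 0.170 to 0.264) and end-matched members 0.3 (interval 0.25 to 0.4). Both classes also set limits on the margins, so 0.25 is not a reference within any of the classes. The 76 members with a value under 0.1 made up 33.2%, and the 31 with a value of 0.4 or more made up 13.5%. The direction of a nearby gene is not known here, so the edge cannot be called upstream or downstream.

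The H3K27me3 scores of enclosed peaks were low. The score is what the authors' peak caller assigned to a peak, on an unnamed scale, and it serves here to rank peaks within a list. The median was 118.2 (interval 103.6 to 134.1), against 405.7 (interval 372.7 to 441.0) for the 1831 other H3K27me3 peaks that overlapped H3K4me3 and 186.3 (interval 176.6 to 201.4) for the 3475 that did not. Only 64 members (27.9%, interval 22.5 to 34.1%) reached the median score of the whole list, 223.0, while 52.2% of all H3K27me3 peaks on numbered chromosomes did. Scores below 100 were held by 93 members, or 40.6%, compared with 14.2% of the other overlapping peaks and 31.7% of those without overlap. Exactly 3100, a value that many of the highest peaks share, was given to 2 members. Scores of 3100 or more were held by 0.873% of members (interval 0.24 to 3.13%) and 7.95% of all H3K27me3 peaks on numbered chromosomes. Among the other overlapping peaks it was 6.5%.

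Score rose with width, so the peaks were also compared within width classes. Members had the lowest of the 3 medians in the upper 4 of 5 classes, but intervals were wide. The gap to other overlapping peaks, as a ratio of medians, was smaller than over all widths. From 1400 bp to below 2000 bp the 48 members had a median score of 151.8 (interval 108.2 to 191.8), below the 248.4 (interval 222.1 to 282.0) of other overlapping peaks, and the intervals did not overlap. Below 800 bp the 41 members had 78.4 (interval 67.1 to 110.3) and the 37 other overlapping peaks 82.9 (interval 63.7 to 118.0), which differ by less than their intervals. The other 3 classes also had overlapping intervals for these sets. In each class these sets lay closer to each other, as a ratio of medians, than they did over all widths.

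**Figure D2:**
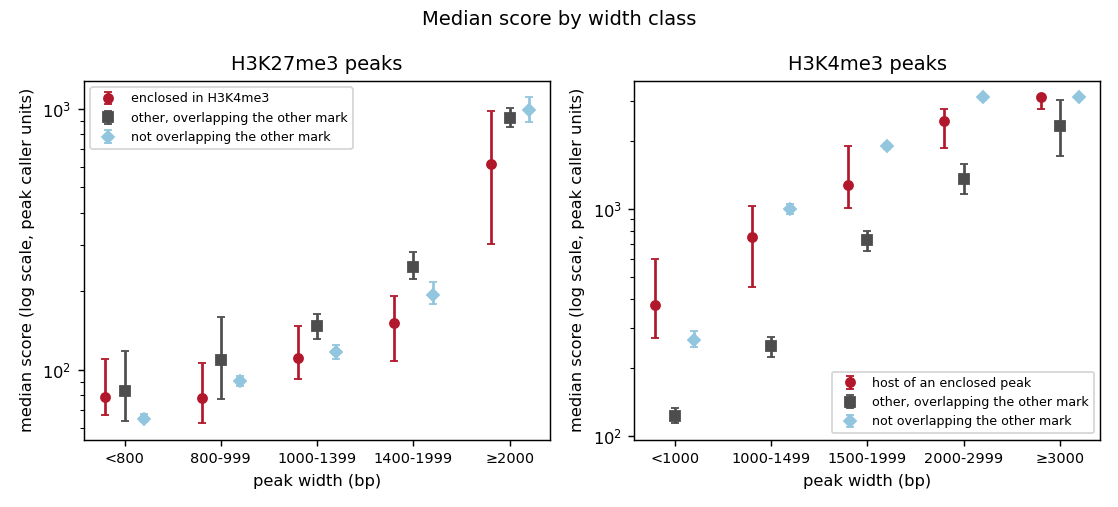
Median score (log scale, in the units of the peak caller) against width class in bp, for H3K27me3 peaks on the left and H3K4me3 peaks on the right, with 95% order-statistic intervals as bars. Enclosed H3K27me3 peaks (red, left) overlap the other sets in most classes, whereas H3K4me3 hosts (red, right) lie above other H3K4me3 peaks that overlap H3K27me3 in all 5 classes, with separate intervals in the first 4.

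On the H3K4me3 side the hosts scored higher than the other H3K4me3 peaks that met H3K27me3, taken as a whole. Their median score was 1296.2 (interval 1073.0 to 1654.4), against 377.3 (interval 348.0 to 413.5) for the 1830 H3K4me3 peaks that overlapped H3K27me3 without holding a member. It was close to the 1319.8 (interval 1284.4 to 1353.7) of the 9247 H3K4me3 peaks free of H3K27me3 peaks. A score at or above the median of the whole list, 1104.2, was found in 126 hosts (56.0%, interval 49.5 to 62.3%), against 50.3% of all H3K4me3 peaks on numbered chromosomes and 19.7% of the other overlapping ones. Scores of 3100 or more occurred in 35 hosts, or 15.6%, against 13.6% of all.

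The difference from other overlapping peaks was also present within width classes, whereas the likeness to peaks without H3K27me3 was not uniform. Hosts below 1000 bp had a median score of 377.9 (n = 34), against 122.5 for other overlapping H3K4me3 peaks of that width. From 1500 bp to below 2000 bp the medians were 1279.7 (interval 1011.1 to 1897.7, n = 50) and 729.0 (interval 655.0 to 798.3, n = 467). From 2000 bp to below 3000 bp they were 2449.0 (interval 1856.1 to 2762.0) and 1356.3 (interval 1163.0 to 1581.7), while H3K4me3 peaks of that width without H3K27me3 had 3100. In the 3 classes between 1000 and 3000 bp the host median lay below that of H3K4me3 peaks without H3K27me3, and the intervals were separate only in the widest of these. Below 1000 bp the host median lay above the 265.3 (interval 246.8 to 289.5) of peaks without H3K27me3, with intervals that overlapped.

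Setting each peak beside its host gave the same picture in ranks. A score percentile, counted within the whole list of each mark, was lower for the member than for its host in 162 of 229 pairs (70.7%, interval 64.5 to 76.3%). The median member stood at percentile 33.7 of the H3K27me3 list and the median host at percentile 55.5 of the H3K4me3 list. In the 1883 other overlapping pairs the order was the opposite, with medians of 63.0 for H3K27me3 and 26.1 for H3K4me3, and H3K27me3 had the lower percentile in 22.1% (interval 20.3 to 24.0%). This contrast, and with it the rank of the hosts above other overlapping H3K4me3 peaks, was not particular to full enclosure. Among the 325 other pairs in which H3K27me3 was the shorter peak, it had the lower percentile in 68.6% (interval 63.4 to 73.4%), and the medians were 34.2 for H3K27me3 and 49.3 for H3K4me3, the latter nearer to the hosts than to all other pairs.

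The 2 scores were hardly related among members. Across the 229 pairs the Spearman correlation of member and host score was 0.03, given as a description because peaks of 1 library are not independent replicates. Members below the median score of the H3K27me3 list on a host at or above the median of the H3K4me3 list were the most frequent combination, with 94 (41.0%, interval 34.9 to 47.5%). A further 71 were below both medians, 36 were at or above both, and 28 combined a higher-scoring member with a lower-scoring host. Since the 2 scores were hardly related, these counts go with the shares of each mark alone. The list median was reached by 27.9% of members and, for the other mark, by 56.0% of hosts. Member score went with the share of the host covered (0.50) and with member width (0.52), and host score with host width (0.72).

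**Figure D3:**
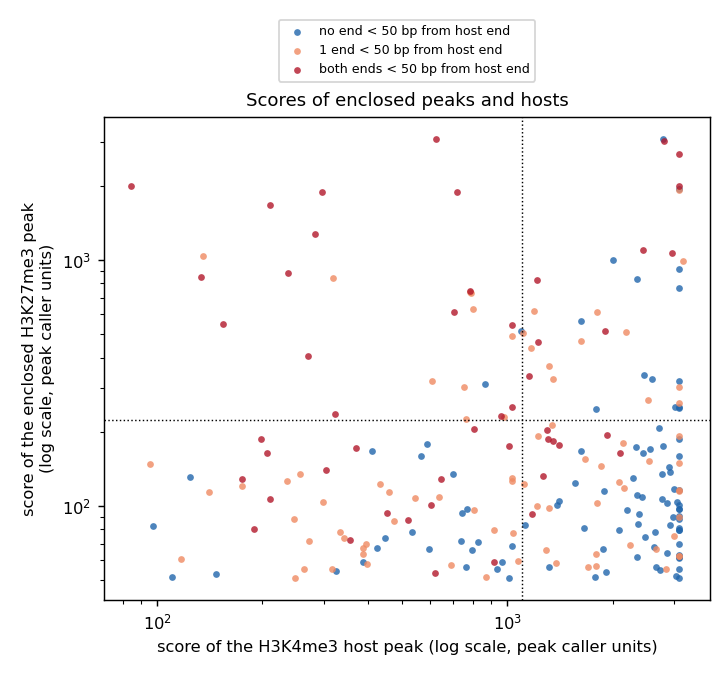
Score of each enclosed H3K27me3 peak against the score of its H3K4me3 host, both on log scales in the units of the peak caller, with dotted lines at the medians of the whole lists. Each point is 1 of 229 peaks coloured by how many of its ends lie less than 50 bp from an end of the host, and the largest group of 94 lies at the lower right, with a high-scoring host and a low-scoring member.

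The 3 end classes differed in score on both marks, in opposite directions. End-matched members had a median H3K27me3 score of 232.4 (interval 176.6 to 541.3, n = 49), half-matched members 116.7 (interval 98.1 to 145.5, n = 82) and inner members 94.8 (interval 80.9 to 108.2, n = 98). Host scores ran the other way, with medians of 719.0 (interval 454.8 to 1033.4), 1092.1 (interval 795.5 to 1343.3) and 2400.3 (interval 1907.6 to 2722.4). Member widths were alike, at 1050, 1205 and 1207 bp, so the classes differed in how wide the host was, with medians of 1088, 1625.5 and 2245 bp. Inner members were thus low-scoring peaks on wide, high-scoring H3K4me3 peaks, of which they covered 55.7% in the median. Host width follows from the way these classes are defined, and host score rises with host width.

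Over all scores, isolation from other H3K27me3 within 5 kb set enclosed peaks apart from H3K27me3 without H3K4me3, but not from other overlapping peaks. The first difference was not seen among members scoring 500 or more, as given below. No other H3K27me3 peak lay within 5 kb of 143 members, or 62.4% (interval 56.0 to 68.5%), while the share over all H3K27me3 peaks on numbered chromosomes was 38.4%. The other overlapping peaks had 61.3% (interval 59.1 to 63.5%) and the peaks without H3K4me3 24.7% (interval 23.3 to 26.1%). Distances fell into a near and a far group. Of the members, 74 had a neighbour less than 1 kb away, 12 between 1 and 5 kb, 6 between 5 and 10 kb, and 137 lay farther off, among them 32 at 500 kb or more. The share within 1 kb was 32.3% of members, 32.4% of other overlapping peaks and 46.9% of all H3K27me3 peaks on numbered chromosomes. The near group was thus not particular to members. The median distance was 44.9 kb over all members and 187.1 kb over the isolated ones. Over the other overlapping peaks it was 29.8 kb. At long distances members lay farther from other H3K27me3 than these peaks did. The upper quartile of the distance was 234769 bp in members and 141917 bp in other overlapping peaks. The 90th percentile was 600642 and 317505 bp. Score and chromosome were not held equal in this comparison.

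**Figure D4:**
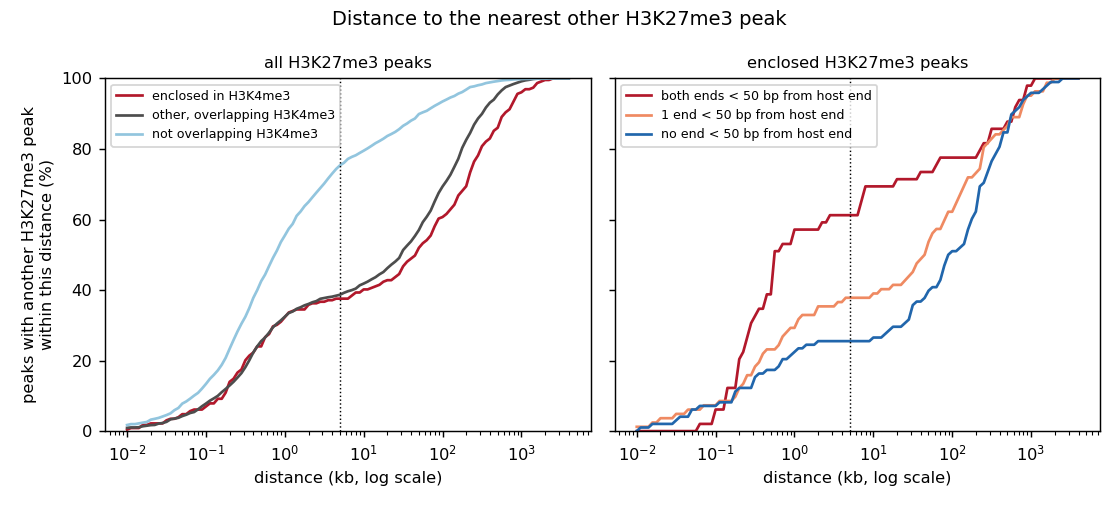
Cumulative share (%) of H3K27me3 peaks that have another H3K27me3 peak within a given distance (kb, log scale), for enclosed, other overlapping and non-overlapping peaks on the left and for the 3 end classes of enclosed peaks on the right. At the dotted line of 5 kb the enclosed and other overlapping curves nearly meet (62.4% and 61.3% isolated), and on the right the end-matched curve lies above the inner one (38.8% and 74.5% isolated).

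Isolated members had lower H3K27me3 scores than members with neighbours. The median score was 97.1 (interval 83.8 to 114.7, n = 143) for isolated members. It was 249.9 (interval 167.1 to 463.2, n = 86) for those with another H3K27me3 peak within 5 kb. Median widths were nearly the same (1177 and 1207 bp), but width was not held equal. Its quartiles were 959.5 and 1507 bp in isolated members and 813.75 and 1946.75 bp in those with neighbours. The isolated share was 78.5% (interval 69.1 to 85.6%) among the 93 members scoring below 100 and 72.1% among the 68 scoring from 100 to 200. It was 50.0% (15 of 30) from 200 to 500, 13.0% (3 of 23, interval 4.54 to 32.1%) from 500 to 1000 and 20% (3 of 15, interval 7.05 to 45.2%) from 1000 upwards. In the other overlapping peaks it moved less, from 75.4% below 100 to 56.1% (interval 50.6 to 61.4%) from 500 to 1000 and 47.5% (interval 43.1 to 52.0%) above. Enclosed peaks scoring from 500 to 1000 were therefore isolated less often than other overlapping peaks of like score, with intervals that did not overlap. Peaks without H3K4me3 were isolated in 31.6% of cases below 100, 26.2% from 100 to 200 and 23.0% from 200 to 500. They had 19.3% (interval 15.5 to 23.7%) from 500 to 1000 and 16.8% (interval 14.3 to 19.7%) from 1000 upwards. Members were thus set apart from these peaks below 500, but not from 500 upwards, where intervals overlapped. By width the order of members and other overlapping peaks was not uniform. Members of at least 2000 bp were isolated in 36.4% of cases (interval 22.2 to 53.4%, n = 33), against 62.2% (interval 59.0 to 65.2%) for other overlapping peaks of this class. From 1000 bp to below 1400 bp it was the other way, at 72.2% of 72 members (interval 61.0 to 81.2%) against 57.0% (interval 51.3 to 62.5%). The shares were 68.6 and 51.1% from 800 bp to below 1000 bp, 72.9 and 65.0% from 1400 bp to below 2000 bp, and 48.8 and 51.4% below 800 bp. The intervals were separate only in the widest class, which has no upper limit. Median widths in that class were 2485 bp for members and 2904 bp for other overlapping peaks, so width was not equal there.

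The 86 members with a neighbour mostly lay in short groups of H3K27me3 peaks. Their median distance to the nearest one was 295.5 bp (interval 203 to 405 bp). The neighbour overlapped the same host in 22 cases, another H3K4me3 peak in 39 and no H3K4me3 peak in 25. It was wider than the member in 60 and had the higher score in 44 of the 86. Members are narrow in part by the choice, so the count of wider neighbours is in part set by it. When H3K27me3 peaks within 5 kb of each other were joined, the median over these members of the length of their domain was 4843.5 bp. Of the 86 members, 25 lay in a domain of at least 10 kb and 8 in one of at least 20 kb, and some shared a domain. Neighbours and domains were not counted in this way for other H3K27me3 peaks, so these counts describe members alone. End-matched members were the least isolated, at 38.8% (19 of 49, interval 26.4 to 52.8%), followed by 62.2% (51 of 82, interval 51.4 to 71.9%) of half-matched and 74.5% (73 of 98, interval 65.0 to 82.1%) of inner members.

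At some of the ends where a member matched its host, both lists resumed at nearly the same place. The members had 458 ends, of which 180 lay less than 50 bp from the host's end. Beyond 40 of these 180 matched ends (22.2%, interval 16.8 to 28.8%) the next peak of each mark followed within 1 kb, compared with 6 of the 278 other ends (2.16%, interval 0.993 to 4.63%). The distances were counted from the member's end and from the host's end, which lie 50 bp or more apart at the other ends. That contrast is therefore in part set by the choice of ends. At 35 of the 40, the next H3K27me3 and the next H3K4me3 peak also began less than 50 bp from each other. At these 40 ends, which were taken for having both next peaks within 1 kb, the median interruption was 370.5 bp in the H3K27me3 list and 329.0 bp in the H3K4me3 list. Other overlapping pairs showed this as well, at 216 of 684 matched ends (31.6%, interval 28.2 to 35.2%), of which 193 resumed together, so it was not particular to enclosed peaks. What lies within these interruptions was not tested, since no galGal4 sequence was used.

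At matched ends H3K4me3 usually reached slightly farther, also where the rule did not require it. Among the 1883 pairs that were not enclosed, 347 ends had H3K4me3 reaching less than 20 bp beyond H3K27me3, 73 had H3K27me3 reaching less than 20 bp beyond H3K4me3, and 5 were equal. With the limit of 50 bp that defines a matched end, the counts were 515 and 164. Of the members, 87 had a margin under 20 bp on at least 1 side and 43 had one under 10 bp. On the other side of the rule, 29 H3K27me3 peaks shorter than the H3K4me3 peak they met projected from it by less than 20 bp in all.

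The closest cases on either side of the rule show how fine it was. On chromosome 19 a member from 6996643 to 6997621 ended on the last base of its host, with a score of 50.87. On chromosome 1 a member from 15305365 to 15307121 left 7 and 1 bp of its host, and one from 156898143 to 156899951 left 37 and 1 bp. The nearest peak outside the rule lay on chromosome 1 from 182260959 to 182262053 and projected by 1 bp from an H3K4me3 peak that scored 1448.3. Those on chromosome 4 from 75510593 to 75511726 and from 12240966 to 12242298 projected by 2 and 3 bp. All coordinates count from 1 on galGal4.

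Single sites give the range of arrangements. The widest member lay on chromosome 2 from 113998832 to 114003373, 4542 bp wide with a score of 914.0. Its host of 7763 bp, from 113995757 to 114003519, was the widest of all hosts and scored 3100. This host held a second member of 755 bp, from 113997900 to 113998654, which scored 80.93 and lay 177 bp from the first, so that H3K4me3 extended alone over the first 2143 bp of the host. The second widest member, on chromosome 4 from 10483060 to 10487589 (4530 bp, score 766.1), shared its host of 6415 bp with 2 further H3K27me3 peaks, neither of them enclosed.

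The member on chromosome 4 from 26354745 to 26358677 was unusual in being wide, high-scoring and alone. It was 3933 bp wide, scored 3100, and covered 95.3% of a host that scored 2774.0. No other H3K27me3 peak lay within 1.62 Mb of it, while the next H3K4me3 peak began only 70 bp from the host. The remaining members among the 5 widest, on chromosome 2 from 86627978 to 86631807 and on chromosome 13 from 10003931 to 10007747, had H3K27me3 neighbours at 264 and 835 bp.

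The other 4 of the 5 highest-scoring members were end-matched. The member on chromosome 10 from 18557565 to 18561314 scored 3100 and left 5 and 12 bp of a host that scored only 625.6. On chromosome 19 the member from 8388126 to 8390942 scored 3030.7 and left 9 and 19 bp of a host scoring 2808.8. On chromosome 9 the member from 7421061 to 7424252 scored 2692.4 and left 6 and 18 bp of a host scoring 3100. All 3 had an H3K27me3 neighbour within 1 kb, and the last lay among 14 other H3K27me3 peaks within 50 kb, the most of any member. The last of them, on chromosome 25 from 682180 to 683229, was 1050 bp wide and scored 1994.6 on a host that scored 84.37, the lowest score of any host.

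Members on the highest-scoring hosts were mostly of the opposite kind. The host with the highest score, 3170.3, lay on chromosome 2 from 13815570 to 13818267 and held a member with a score of 983.8. The next 4 hosts by the ranking, all at 3100 and on chromosome 1, held members that scored between 96.70 and 115.8. These members began at 2199997, 26257533, 40002525 and 79112359, were 1020 to 2483 bp wide, and had no other H3K27me3 peak within 42.5 kb. Many hosts share a score of 3100, and these 4 came first by position alone. They do not stand for all 35 hosts that scored 3100 or more. The member on chromosome 9 from 7421061 to 7424252, also on a host at 3100, scored 2692.4.

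Members in dense surroundings contrasted with those far from any other H3K27me3. On chromosome 2 the member from 32974074 to 32975092 had 13 other H3K27me3 peaks within 50 kb and belonged to a domain of 79323 bp made of 18 peaks, the longest domain that held a member, and its host scored 95.27. On chromosome 9 the member from 11395254 to 11398959 scored 1945.9 and lay in a domain of 61571 bp. Also on chromosome 9, from 15458399 to 15459772, and on chromosome 27, from 3556202 to 3557707, members had 10 H3K27me3 peaks within 50 kb each. At the other end, the member on chromosome 2 from 144683075 to 144684593 was 2.46 Mb from the next H3K27me3 peak, with a score of 206.1 on a host scoring 2716.7. The member on chromosome 3 from 98115918 to 98118316 was 1.80 Mb away from the next and scored 370.9. Those on chromosome 1 from 98864555 to 98865752 and on chromosome 2 from 26660109 to 26661368 were 1.56 and 1.44 Mb away, with scores of 88.32 and 66.17.

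Besides the chromosome 2 site, 3 hosts held 2 members each. On chromosome 9 the host from 16340612 to 16346113 (5502 bp, score 3100) held members of 842 and 2410 bp. Its first member began 19 bp inside the host, and the second left 1197 bp at the far end. On chromosome 7 the host from 22889475 to 22893438 held members of 1076 and 2048 bp that were 46 bp apart and scored 167.1 and 560.6. On chromosome 1 the host from 10043438 to 10045683 held members of 771 and 777 bp that were 294 bp apart and scored 110.3 and 61.72. Including these hosts, 23 members lay on an H3K4me3 peak that another H3K27me3 peak also touched.

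Along the genome, the share of enclosed peaks among H3K27me3 peaks fell from the large to the small chromosome classes. Single chromosomes did not all follow this order, as given below. Chicken chromosomes 1 to 5 are taken as macrochromosomes, 6 to 10 as intermediate and 11 upwards as the small, gene-dense microchromosomes. Members made up 5.47% of H3K27me3 peaks on macrochromosomes (133 of 2432, interval 4.63 to 6.44%), 3.93% on intermediate chromosomes (43 of 1094, interval 2.93 to 5.25%) and 2.64% on microchromosomes (53 of 2009, interval 2.02 to 3.43%). Microchromosomes thus held 23.1% of the members (interval 18.2 to 29.0%) and 36.3% of all H3K27me3 peaks on numbered chromosomes. Counted among overlapping H3K27me3 peaks alone, the shares were 12.3% (interval 10.5 to 14.4%), 10.5% (interval 7.88 to 13.8%) and 9.27% (interval 7.15 to 11.9%), with intervals that overlapped.

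Among single chromosomes, 2 and 1 had the most members. On chromosome 2, 44 of 521 H3K27me3 peaks were enclosed (8.45%, interval 6.35 to 11.1%), and on chromosome 1 it was 39 of 586 (6.66%, interval 4.91 to 8.97%). Chromosomes 3 and 5 had 4.72% (interval 3.17 to 6.99%) and 4.09% (interval 2.53 to 6.54%), near the 4.14% of all numbered chromosomes. Chromosome 4, also a macrochromosome, had 11 of 447 (2.46%, interval 1.38 to 4.35%). Its share also fell short of chromosome 2 among overlapping peaks, at 6.11% (interval 3.45 to 10.6%) against 15.8% (interval 12.0 to 20.5%). Of the macrochromosomes, only 1 and 2 exceeded the 5.47% of their class. Smaller chromosomes 7, 9 and 11 had 5.74% (interval 3.31 to 9.77%), 6.06% (interval 3.5 to 10.3%) and 6.17% (interval 3.39 to 11%). These shares lay above those of chromosomes 3, 4 and 5, with intervals that overlapped theirs. So did chromosome 25, with 2 of 15, and the remaining smaller chromosomes lay below the 4.72% of chromosome 3. Chromosomes 16, 22 and 26 had no member among 6, 61 and 88 H3K27me3 peaks. No correction was made for comparing 28 chromosomes. Members were spread thinly, with a median of 1416 kb to the nearest other member, and the fullest 1 Mb window, on chromosome 9 from 16 to 17 Mb, held 4.

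**Figure D5:**
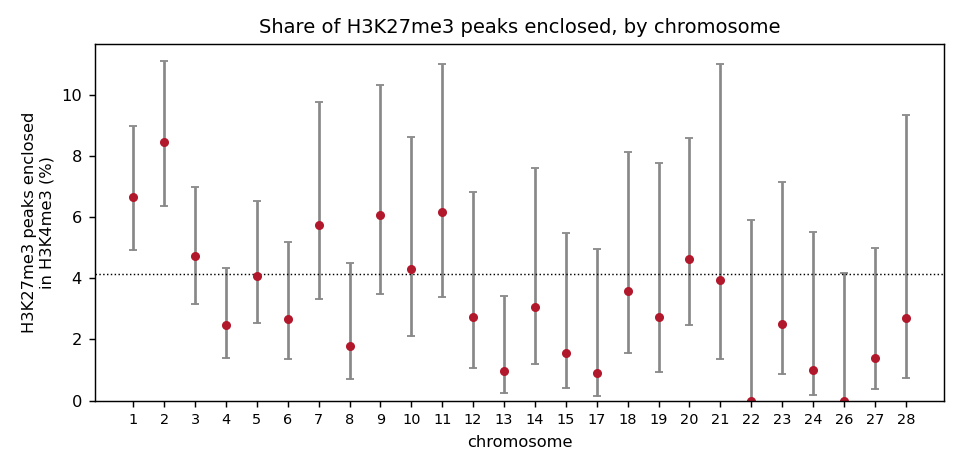
Share (%) of the H3K27me3 peaks of each numbered chromosome that lie enclosed in an H3K4me3 peak, with 95% Wilson intervals as bars and the value over all numbered chromosomes (4.14%) as a dotted line. Chromosomes 1 and 2 lie above the line with their whole intervals and chromosome 13 below it, and chromosomes 16 and 25, with 6 and 15 H3K27me3 peaks, are left out of the plot.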

How the data were processed

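ChIP-seq libraries of H3K4me3, H3K27me3 and Input from HH30 chicken neural tube were sequenced, and the deposited peak lists of both marks were used. Per the file headers, the authors called peaks with MACS run in Galaxy. The submitters' processing notes list BWA, MACS2 and the build galGal4, with no version or parameter. Each deposited score was assigned to a peak by the authors' peak caller, from 50.01 upwards, and its scale is unnamed. The lists hold no read counts, so the depth is unknown. Starts and ends are the authors' deposited coordinates, in bp.

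Enclosure, margins, distances and percentiles were computed with Python 3.11.15, numpy 2.4.6, pandas 2.3.3 and scipy 1.17.1, with no filter on peaks beyond the numbered chromosomes. The enclosure search and the median interval were tested on simulated data. Shares carry 95% Wilson intervals and medians carry 95% binomial order-statistic intervals. Sites were named by rule, as the 5 widest members, the 5 of highest score, of highest host score, with most H3K27me3 peaks within 50 kb and farthest from another, hosts with 2 members, and the 3 closest cases on either side of the enclosure rule. The members, classes and comparisons were chosen with earlier results of these data known. Alternatives covered the enclosure rule, sequences, score filters, merging within 1 kb and the isolation distance.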

Additional observations from a re-analysis of the deposited data

Results flagged for a closer look

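Enclosed H3K27me3 peaks also occurred on sequences that the comparisons left out, which flagged these counts because they exceed the 3 that a count of 0 allows. On chromosome Z, 13 of 331 H3K27me3 peaks were enclosed (3.93%, 95% Wilson interval 2.31 to 6.60%), with a median width of 1295 bp and a median score of 168.5. On all remaining sequences except W, 12 of 400 were enclosed (3%, interval 1.72 to 5.17%), with a median width of 1110 bp and a median score of 152.5. These shares lay near the 4.14% of the numbered chromosomes, with intervals that overlapped its interval.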

How the results depend on the processing

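The number of members depended on the rule. It was 229 as reported, 98 with at least 50 bp of the host required on both sides, 350 when 90% of the H3K27me3 peak had to lie inside, 64 among H3K27me3 peaks at or above the median score and 130 with H3K4me3 peaks at or above theirs. Those filters remove peaks by construction. With 50 bp on both sides, the median share of the host covered was 55.7%, the member score 94.8, the host score 2420.5 and the isolated share 74.5%. With 90% inside, relative position was 0.0656, since projecting peaks lie at an edge. Among H3K27me3 peaks at or above the median score, the width was 1804.5 bp, the covered share 93.7%, the relative position 0.136, the score 554.6, the isolated share 29.7% and the microchromosome share 29.7%. With H3K4me3 peaks at or above the median score, the width was 1368.5 bp, the covered share 61.6% and the host score 2498.2. After merging within 1 kb (164 members), the covered share was 59.0% and the relative position 0.140. The member score was then 102.6, the host score 1671.6 and the isolated share 92.1%. Merging removes every neighbour within 1 kb by construction, and 74 of the 229 members had one, so the isolated share had to rise. Settings chosen after the data were seen were leaving out end-matched members (180 left), isolation from peaks off the host, and all alternatives for the end-matched share. Without end-matched members the covered share was 66.4%, the relative position 0.132, the member score 102.6, the host score 1681.3 and the isolated share 68.9%. The end-matched share was 9.17% with 20 bp, 31.4% with 100 bp and 9.15% after merging within 1 kb. Counting only neighbours off the host, 70.3% were isolated. No paired analysis was possible because each mark has 1 library. All sequences together moved no value beyond its interval. The lists carry no read counts, so depth limits where a peak could be found.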
